A study of Mus musculus with 18 samples.

Results

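The 8 mouse genes of the striated muscle troponin complex were followed across 3 muscles of 2 mutant mice. Every probe set whose single gene symbol in the platform annotation was Tnnc1, Tnnc2, Tnni1, Tnni2, Tnni3, Tnnt1, Tnnt2 or Tnnt3 was taken, which gave 10 probe sets of the 12422 on the array that were not controls. Tnnc2 and Tnnt1 had more than 1 probe set, and 9 of the 10 were bright enough to be tested, so all 8 genes had a tested probe set. The arrays compared extraocular muscle, which moves the eye, leg muscle and heart muscle of mice aged 8 weeks. One set of mice was labelled MDX and served as the control. The mdx mouse lacks dystrophin, the protein that ties the cytoskeleton of the muscle fibre to its membrane. The other set was labelled dKO (dko here), a name the labels did not spell out and that usually stands for mice lacking dystrophin and its relative utrophin. Each of the 6 groups had 3 arrays of total RNA, numbered 1 to 3, and no wild-type mouse was among them. The labels did not state whether the 3 arrays came from separate animals or from pools. The tests therefore rest on the spread among 3 arrays, and that spread may be technical. Which leg muscles were taken, and which chambers of the heart, was not given in the sources used here.

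Troponin sits on the thin filament of the sarcomere and makes contraction depend on calcium. Its C subunit binds calcium, its I subunit holds back the interaction of actin with myosin when calcium is low, and its T subunit anchors the complex to tropomyosin. Fast skeletal fibres use Tnnc2, Tnni2 and Tnnt3. Slow skeletal fibres use Tnnc1, Tnni1 and Tnnt1, and the adult heart uses Tnnc1 together with Tnni3 and Tnnt2, so the same C subunit serves slow fibres and heart. The slow isoform Tnni1 and the cardiac isoform Tnnt2 are also made in developing and regenerating skeletal muscle. By the order of genes in RefSeq (GRCm38.p6), the I and T genes lie in pairs: Tnnt1 beside Tnni3 on chromosome 7 with 0 protein-coding genes between them, Tnni1 near Tnnt2 on chromosome 1 with 1 between (Lad1), and Tnni2 near Tnnt3 on chromosome 7 with 1 between (Lsp1).

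The values are deposited probe set intensities, scaled so that the mean without the 2% highest and 2% lowest values was between 1500.69 and 1501.15 on every array. A level can be compared between groups for 1 probe set, not between probe sets. Each array's 40th percentile, 319.2 to 420.2, was taken as the mark of a dim probe set, since no detection calls were used. The 6 arrays numbered 3, 1 in each group, stood apart from the rest, with medians of 525.6 to 573.75 against 612.6 to 671.8 and maxima of 47023.9 to 74433.7 against 33355.1 to 47588.9. In Tnnc1 the array numbered 3 was the highest of its group in 6 of 6 groups, and in the Tnnt1 probe set 101383_at it was the lowest in 5 of 6. The utrophin gene was the check of the labels. Its probe set 92507_at read 437.6 to 1086.5 on the 9 mdx arrays and 219.9 to 414.3 on the 9 dko arrays, and the dko array was lower in 9 of 9 same-numbered pairs. The mean difference over tissues was -0.82 on the log2 scale (p = 0.00025 by an exact two-sided permutation of the genotype labels inside each tissue, 1 of 13 such values computed). Its other probe set, 92508_s_at, was lower in the dko array of 8 of 9 pairs, and the leg groups overlapped. The dystrophin probe set 93623_at differed by -0.23 (exact permutation p = 0.258).

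**Figure D1:**
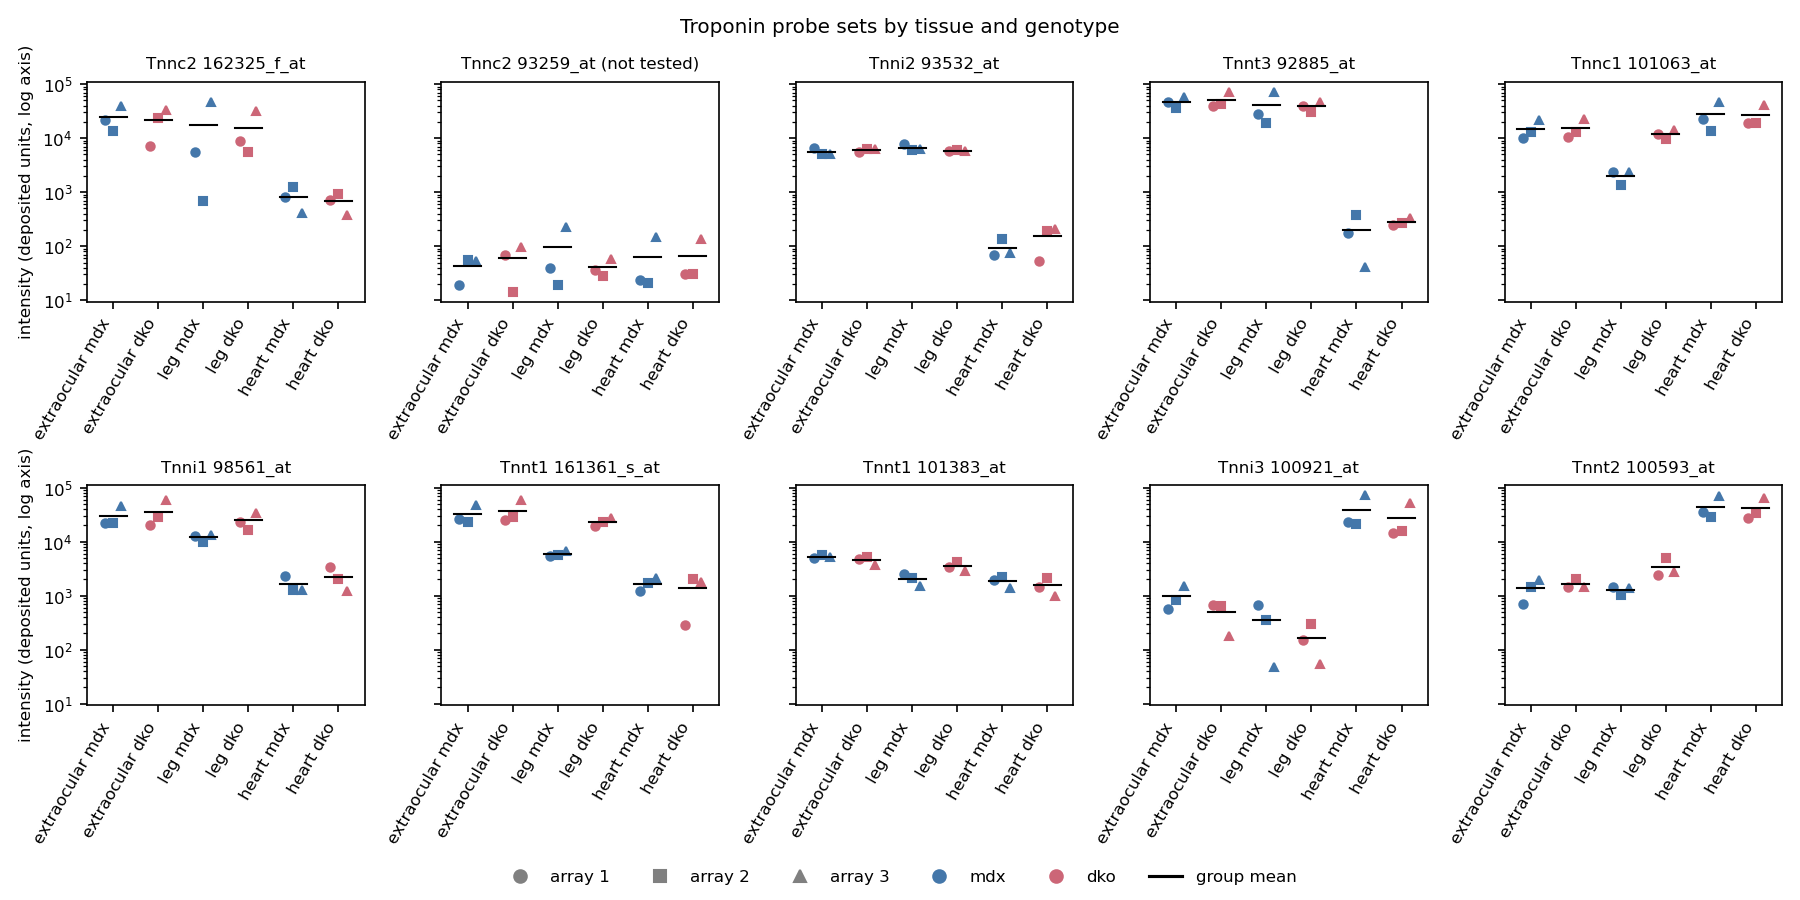
Deposited intensity (log axis) of each of the 10 troponin probe sets on the 18 arrays, by tissue and genotype, with a marker shape for the array number and a bar at the mean of the 3 arrays. Tnni2 and Tnnt3 are high in extraocular and leg muscle and low in heart, Tnnc2 162325_f_at overlaps the heart range on 1 mdx leg array, Tnnc2 93259_at is dim on all 18 arrays, Tnni3 and Tnnt2 are high in heart, and Tnnc1 is low only in mdx leg muscle.

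Among the fast isoforms, the troponin I gene Tnni2 gave similar values in both skeletal muscles. It read 6701.9, 5168.9 and 5007.4 on the mdx extraocular arrays numbered 1, 2 and 3, and 5550.8, 6416.6 and 6409.4 on the dko ones. In leg muscle it read 7690.1, 5939.3 and 6432.3 in mdx and 5807.2, 6039.1 and 5887.5 in dko. In heart it read 67.9, 138.2 and 73.4 in mdx and 54.4, 192.1 and 211.5 in dko. All 12 skeletal muscle arrays lay above all 6 heart arrays, none of which reached the 40th percentile, and the extraocular and leg groups overlapped. Mean levels were 6687.2 ± 902.8 in mdx leg and 93.2 ± 39.1 in mdx heart (SD, n = 3 each).

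The fast troponin T gene, Tnnt3, was also higher on every skeletal muscle array than on any heart array. It read 46507.9, 36046.1 and 57339.2 in mdx extraocular muscle and 40193.4, 42780.4 and 71784.1 in dko extraocular muscle. In leg muscle it read 28382.0, 19491.0 and 73098.7 in mdx and 39572.4, 30022.2 and 47023.9 in dko. Heart values were 177.0, 385.0 and 40.5 in mdx and 245.0, 273.1 and 338.2 in dko, and 1 of the 6 heart arrays reached the 40th percentile. The 4 skeletal muscle groups overlapped each other and none reached down to the heart groups.

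The fast troponin C gene, Tnnc2, varied widely from array to array. Its probe set 162325_f_at read 22041.3, 13502.5 and 39431.3 in mdx extraocular muscle and 7128.2, 23844.6 and 33244.3 in dko extraocular muscle. In leg muscle it read 5667.7, 700.1 and 47297.8 in mdx and 8803.3, 5606.6 and 31789.3 in dko. In heart it read 808.9, 1225.9 and 415.0 in mdx and 725.1, 924.5 and 381.0 in dko. The mdx leg array numbered 2, at 700.1, lay within the range of the heart arrays, while the array numbered 3 of the same group was the highest of all 18. On that low array the fast myosin heavy chain Myh4 read 461.3, against 10917.9 and 48678.2 on the other mdx leg arrays. The other Tnnc2 probe set, 93259_at, stayed between 14.4 and 230.2 on all 18 arrays, was above the 40th percentile on 0 of them and was not tested.

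The slow and cardiac troponin C gene, Tnnc1, was bright in 5 of the 6 groups. In heart it read 23055.5, 13655.4 and 46178.5 in mdx and 18720.5, 18929.3 and 42006.7 in dko. In extraocular muscle it read 10274.0, 13033.3 and 21980.7 in mdx and 10631.9, 13264.3 and 22242.0 in dko. In leg muscle it read 2344.1, 1360.8 and 2348.2 in mdx and 11873.8, 9671.9 and 14006.1 in dko. All 3 mdx leg arrays lay below the other 15 arrays, and the dko leg arrays overlapped the extraocular ones. In the order of the 6 means, mdx leg was the only group that did not overlap its neighbour.

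Slow troponin I, Tnni1, was highest in extraocular muscle, at 22431.9, 22515.2 and 44870.0 in mdx and 20426.9, 28657.9 and 58919.8 in dko. Leg muscle gave 12605.1, 9901.6 and 13431.6 in mdx and 23355.1, 16635.2 and 34019.8 in dko. Heart gave 2309.6, 1274.1 and 1299.8 in mdx and 3357.9, 2080.2 and 1220.4 in dko. The order of means was extraocular dko, extraocular mdx, leg dko, leg mdx, heart dko and heart mdx. Neighbours in that order did not overlap at 2 steps, leg dko to leg mdx and leg mdx to heart dko.

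Slow troponin T, Tnnt1, was measured by 2 probe sets. The brighter, 161361_s_at, read 26845.9, 22872.3 and 46826.2 in mdx extraocular muscle and 25467.9, 28644.0 and 58842.6 in dko extraocular muscle. In leg muscle it read 5338.6, 5768.4 and 6655.0 in mdx and 19171.2, 22961.7 and 27836.3 in dko. Heart values were 1199.9, 1743.6 and 2101.0 in mdx and 286.8, 2053.5 and 1813.7 in dko. The mdx leg arrays lay between heart and the other skeletal muscle arrays, with no overlap on either side. The other probe set, 101383_at, read 4900.2, 5625.7 and 5265.4 in mdx extraocular, 4859.0, 5110.0 and 3777.5 in dko extraocular, 2565.0, 2110.5 and 1496.8 in mdx leg and 3389.1, 4284.4 and 2908.4 in dko leg muscle. In heart it read 1985.3, 2234.3 and 1400.1 in mdx and 1472.7, 2170.2 and 1006.4 in dko, so mdx leg and heart overlapped in this probe set. Over the 18 arrays, which share tissues and genotypes, the log2 values of the 2 probe sets correlated with Pearson r = 0.84, and their deviations from the group means with r = -0.20. By their means both probe sets put extraocular muscle above leg and leg above heart, but mdx leg was clear of heart only in 161361_s_at. They did not follow each other within groups. The array numbered 3 was the highest in 5 of 6 groups for 161361_s_at and the lowest in 5 of 6 for 101383_at.

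**Figure D2:**
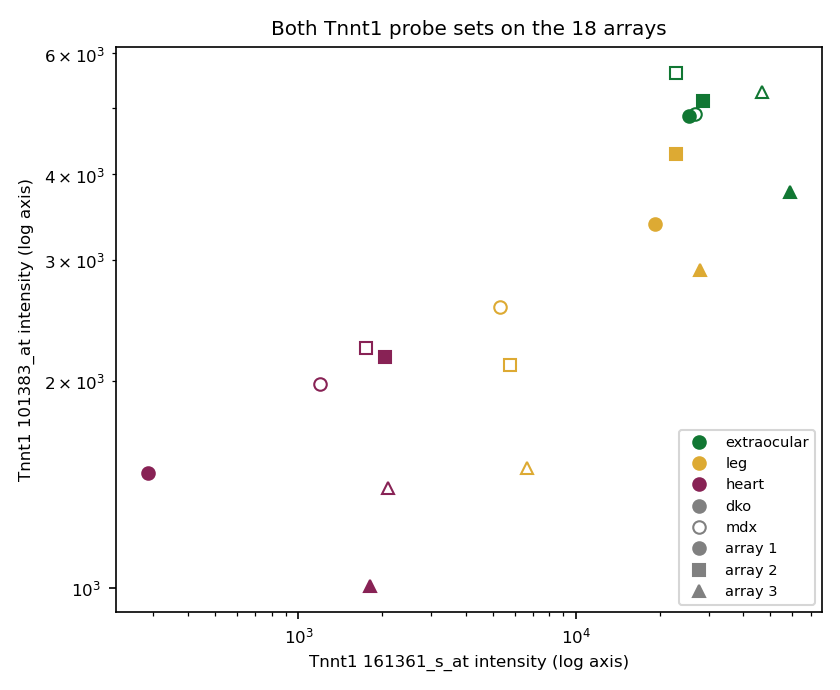
Intensity of the 2 Tnnt1 probe sets against each other on the 18 arrays (both axes log), with colours for the tissues, filled markers for dko, open ones for mdx and marker shapes for the array number. Extraocular arrays lie at the top right and heart arrays at the lower left, and every dko leg array lies above and to the right of every mdx leg array.

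Cardiac troponin I, Tnni3, was bright in heart alone. It read 22961.7, 21190.0 and 71792.4 in mdx heart and 14272.4, 15684.5 and 51669.3 in dko heart. In extraocular muscle it read 577.6, 825.6 and 1528.1 in mdx and 674.4, 643.0 and 183.1 in dko. Leg values were 662.6, 350.2 and 48.0 in mdx and 149.7, 294.3 and 54.2 in dko. The heart arrays did not overlap any other, and 1 of the 6 leg arrays reached the 40th percentile, against 5 of the 6 extraocular arrays.

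Cardiac troponin T, Tnnt2, kept a level above the 40th percentile on all 18 arrays. It read 36046.5, 29044.8 and 69214.9 in mdx heart and 27234.0, 33372.3 and 63031.8 in dko heart. In extraocular muscle it read 697.7, 1476.3 and 1933.9 in mdx and 1433.4, 2012.7 and 1447.5 in dko. In leg muscle it read 1459.0, 1029.6 and 1364.1 in mdx and 2426.3, 5081.8 and 2805.5 in dko. The 3 dko leg arrays were the highest of the 12 skeletal muscle arrays.

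Differences between groups were tested with limma on log2(intensity + 166.7), in 1 fit over all 18 arrays with p-values adjusted by the Benjamini-Hochberg method over the 8888 probe sets tested. A probe set passed at an adjusted p under 0.05, and folds are on that scale, which understates the change of dim values. In whole muscle, fewer fibres of a type and less RNA in each fibre cannot be told apart. In mdx mice 7 of the 9 tested troponin probe sets differed between heart and leg, against 9.97% of all probe sets tested. In heart 3 were higher, against 5.04% of all, and 4 lower, against 4.93%. Tnni2 was lower in heart by -4.72 on the log2 scale (95% interval -5.18 to -4.27, adjusted p = 8.81e-10) and Tnnt3 by -6.67 (-7.57 to -5.76, adjusted p = 2.9e-08). Heart values of these 2 genes were mostly under the 40th percentile, and with an offset of 16.67 the differences were -5.98 and -7.71. Tnni1 was lower by -2.79 (adjusted p = 0.000302), while Tnnc1 was higher by 3.53, an 11.6-fold difference (2.59 to 4.47, adjusted p = 4.09e-05). Tnni3 was 72.8-fold higher (6.19, adjusted p = 3.32e-06), or higher by 7.02 with the offset of 16.67, and Tnnt2 was 29.1-fold higher (4.86, adjusted p = 4.66e-07).

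The remaining probe sets of the mdx heart and leg comparison were less settled. The Tnnt1 probe set 161361_s_at was lower in heart by -1.74 (adjusted p = 0.0318), a call lost without any 1 of the 6 arrays of the comparison (-1.91 to -1.54) and with the offset of 16.67 (-1.84, adjusted p = 0.0585). Tnnt1 101383_at differed by -0.12 (95% interval -0.68 to 0.45, adjusted p = 0.915). Tnnc2 differed by -2.75 (-4.98 to -0.52, adjusted p = 0.13), and without the mdx leg array numbered 2 the difference was -4.17 (adjusted p = 0.00737). That was the 1 run of 6 with a single array left out that passed. Across those runs the Tnnc2 difference ranged from -4.17 to -1.28, with adjusted p up to 0.45.

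Between heart and extraocular muscle of mdx mice, 8 of 9 troponin probe sets passed, against 7.05% of all. In heart 2 were higher, against 3.3% of all, and 6 lower, against 3.76%. Slow isoforms were lower in heart than in extraocular muscle. Tnni1 was lower in heart by -4.04 (adjusted p = 8.8e-06) and Tnnt1 161361_s_at by -4.09 (adjusted p = 3.83e-05). Tnnt1 101383_at was lower by -1.43 (adjusted p = 0.00242). Tnnc2, Tnni2 and Tnnt3 were lower by -4.63, -4.48 and -7.08, of which Tnnc2 (adjusted p = 0.0109) did not pass without the mdx heart array numbered 3 (-4.30, adjusted p = 0.0517). Tnni3 and Tnnt2 were higher in heart by 4.93 and 4.86. Tnnc1, the C subunit that heart and slow fibres share, was the 1 probe set that did not pass, with a difference of 0.76 (95% interval -0.17 to 1.70, adjusted p = 0.446).

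Extraocular and leg muscle of mdx mice differed in the slow isoforms. Here 3 of 9 probe sets passed, against 4.02% of all, and all 3 were higher in extraocular muscle, against 2.57%. Tnnc1 was 6.81-fold higher (2.77, 95% interval 1.83 to 3.71, adjusted p = 0.00186), Tnnt1 161361_s_at was 5.08-fold higher (2.35, adjusted p = 0.0122) and Tnnt1 101383_at was 2.49-fold higher (1.32, adjusted p = 0.0101). The call on 161361_s_at was lost without the mdx extraocular array numbered 3 (2.04, adjusted p = 0.0611), and that on 101383_at when only the compared groups were fitted (adjusted p = 0.0784). Tnni1 differed by 1.24 without overlap of the groups but did not pass (adjusted p = 0.147, or 0.0326 after quantile normalization), and Tnnt2 differed by 0.00 (95% interval -0.85 to 0.85). None of the fast genes passed, at 1.88 for Tnnc2, -0.25 for Tnni2 and 0.41 for Tnnt3. Without the mdx leg array numbered 3, the highest of the 18, the Tnnc2 difference was 3.35 and passed (adjusted p = 0.0465). It passed in only 1 of the 6 runs with a single array left out. Across those runs the Tnnc2 difference ranged from 0.46 to 3.35, with adjusted p up to 0.995.

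In dko mice the comparison of extraocular and leg muscle had 0 of 9 troponin probe sets past the threshold. In that comparison limma called 2.14% of all probe sets. An unadjusted p under 0.05 was found for 1 troponin probe set, against 928 of the 8888 probe sets tested. The replicate block, which takes out what arrays of the same number share, also called 0 of 9, against 7.58% of all. Tnnc1 differed by 0.32 (95% interval -0.62 to 1.25), Tnni1 by 0.46 and Tnnt1 by 0.60 and 0.37 in its 2 probe sets. The lowest unadjusted p belonged to Tnnt2, which was lower in every extraocular array than in any leg array (-0.95, adjusted p = 0.391). Heart and leg muscle of dko mice differed in 8 of 9 probe sets, against 10.7% of all. In heart 2 were higher, against 5.16% of all, and 6 lower, against 5.54%. Tnni1 was lower in heart by -3.42, Tnnt1 161361_s_at by -4.21 and Tnnt1 101383_at by -1.15, and the last call was lost without the dko leg array numbered 2 or the dko heart array numbered 3 (adjusted p = 0.0532 and 0.0534) and when only the compared groups were fitted (0.0791). Tnnt2 was higher in heart by 3.50 and Tnni3 by 6.16. Tnnc1 was higher by 1.06 and did not pass (adjusted p = 0.165), but passed with the replicate block (adjusted p = 0.00703). Between dko heart and extraocular muscle 8 of 9 passed, against 7.66% of all, 2 higher (3.43%) and 6 lower (4.23%), and again Tnnc1 was the exception (0.74, adjusted p = 0.46). Tnnc2 passed in both dko comparisons with heart (-3.87 and -4.47), and both calls depended on single arrays. For heart against leg it was lost without any 1 dko heart array or without dko leg array 3 (-4.08 to -3.15). For heart against extraocular muscle it was lost without dko extraocular array 2 or 3 or dko heart array 3 (-4.27 to -4.03).

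**Figure D3:**
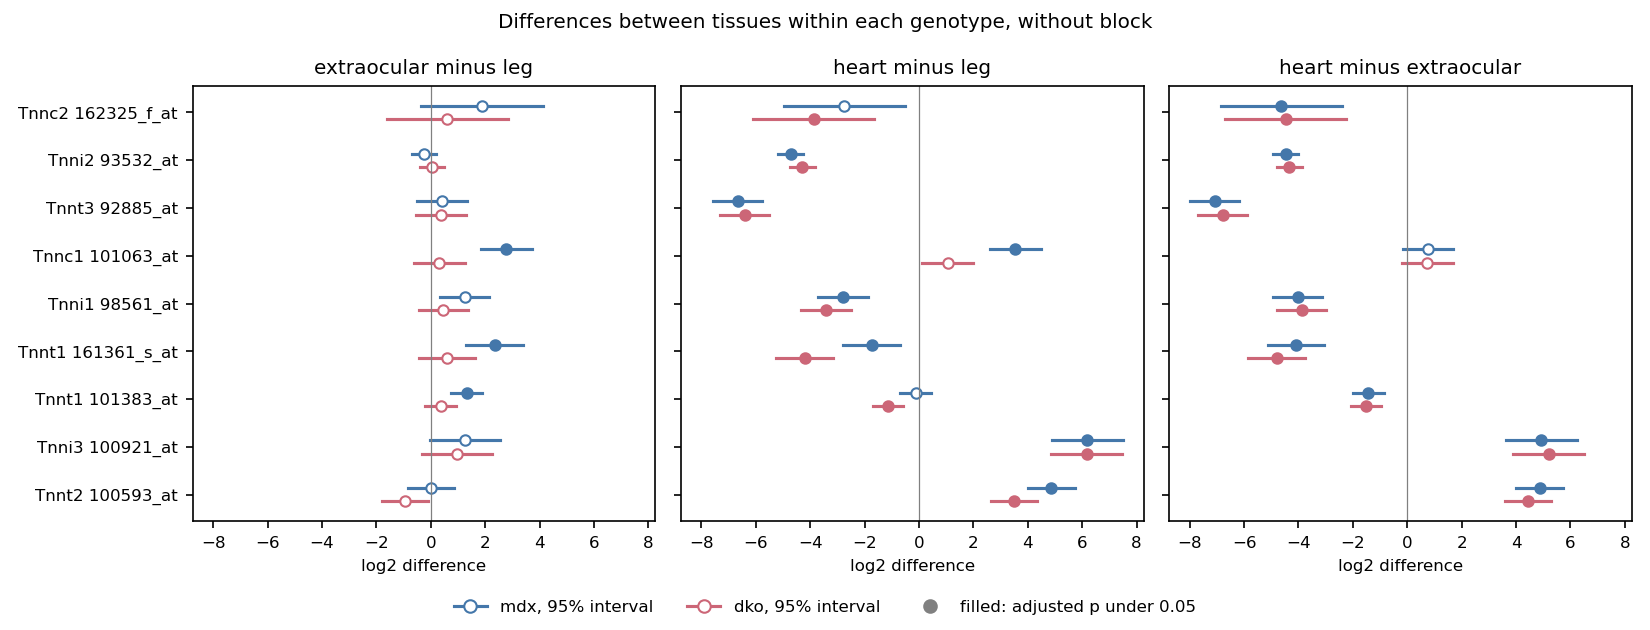
Log2 difference between tissues of each tested troponin probe set in mdx and in dko mice, with 95% intervals from limma without the replicate block, filled where the adjusted p was under 0.05. In the comparison of extraocular with leg muscle, the mdx points of Tnnc1 and the brighter Tnnt1 probe set lie at 2.77 and 2.35, and the dko points lie at 0.32 and 0.60.

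Leg muscle was the 1 tissue in which any troponin probe set passed between dko and mdx. Slow isoforms were higher in dko leg muscle on all 3 arrays: Tnnc1 5.58-fold, Tnnt1 3.83-fold and 1.68-fold in its 2 probe sets, and Tnni1 1.98-fold. Fast isoforms overlapped between the genotypes. Without a block 0 of 9 troponin probe sets passed, against 0.0563% of all probe sets. An unadjusted p under 0.05 was found for 5 of the 9, against 556 of the 8888 probe sets tested. With the replicate block 3 of 9 passed, all higher in dko, against 1.2% of all probe sets in either direction and 1.01% higher. The median difference over the 9 probe sets was 0.93 on the log2 scale, and it was -0.04 over all probe sets tested.

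Tnnc1 was the member with the smallest adjusted p in leg muscle. It averaged 2017.7 ± 568.9 in mdx and 11850.6 ± 2167.2 in dko (SD, n = 3 each), and the 3 same-numbered pairs differed by 2.26, 2.69 and 2.50. The difference of 2.48 had a standard error of 0.44 without a block (95% interval 1.54 to 3.42, adjusted p = 0.0535) and of 0.16 with the replicate block (2.12 to 2.84, adjusted p = 0.000301). It passed without a block only after quantile normalization (2.46, adjusted p = 0.00235) or with a trended, robust variance model (adjusted p = 0.0432), 2 of the settings tried. With the block it passed without any 1 of the 3 leg pairs (2.38 to 2.59). It did not pass without all 6 arrays numbered 3 (2.47, adjusted p = 0.0844).

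For Tnnt1 161361_s_at the leg means were 5920.7 ± 671.3 in mdx and 23323.1 ± 4343.8 in dko, and the pairs differed by 1.81, 1.96 and 2.04. The difference of 1.94 did not pass without a block (95% interval 0.90 to 2.98, adjusted p = 0.311) and passed with the replicate block (1.32 to 2.56, adjusted p = 0.0175). Leaving out any 1 pair of leg arrays ended that call (1.89 to 2.00, adjusted p = 0.0582 to 0.128). The probe set 101383_at moved the same way by 0.74 with pairs at 0.38, 0.97 and 0.89, and did not pass (adjusted p = 0.529, or 0.0581 with the block).

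Tnni1 averaged 11979.4 in mdx leg muscle and 24670.0 in dko leg muscle, with SDs of 1846.3 and 8766.6 (n = 3 each). Its difference of 0.98 (95% interval 0.08 to 1.89, adjusted p = 0.716) passed with the replicate block (0.57 to 1.40, adjusted p = 0.0384), and not without any 1 pair (0.81 to 1.11, adjusted p = 0.1 to 0.144). The cardiac and embryonic T isoform, Tnnt2, was higher by 1.25 in dko leg muscle without overlap of the groups, with pairs at 0.67, 2.13 and 0.96. It did not pass either way (adjusted p = 0.439, or 0.0713 with the block). Cardiac Tnni3 differed by -0.50 (95% interval -1.81 to 0.80) at levels mostly under the 40th percentile.

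Of the fast genes in leg muscle, Tnni2 had the narrowest interval, at -0.17 (95% interval -0.62 to 0.29). Tnnt3 differed by 0.15 (-0.75 to 1.06). Tnnc2 differed by 0.93 with an interval of -1.30 to 3.16 and pairs at 0.62, 2.74 and -0.57, so its direction was not shared by the pairs. In the count of leg probe sets whose 3 dko arrays all lay above the 3 mdx arrays there were 5 troponin probe sets of 9, those of Tnnc1, Tnni1, Tnnt1 and Tnnt2, against 5.02% of all probe sets.

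**Figure D4:**
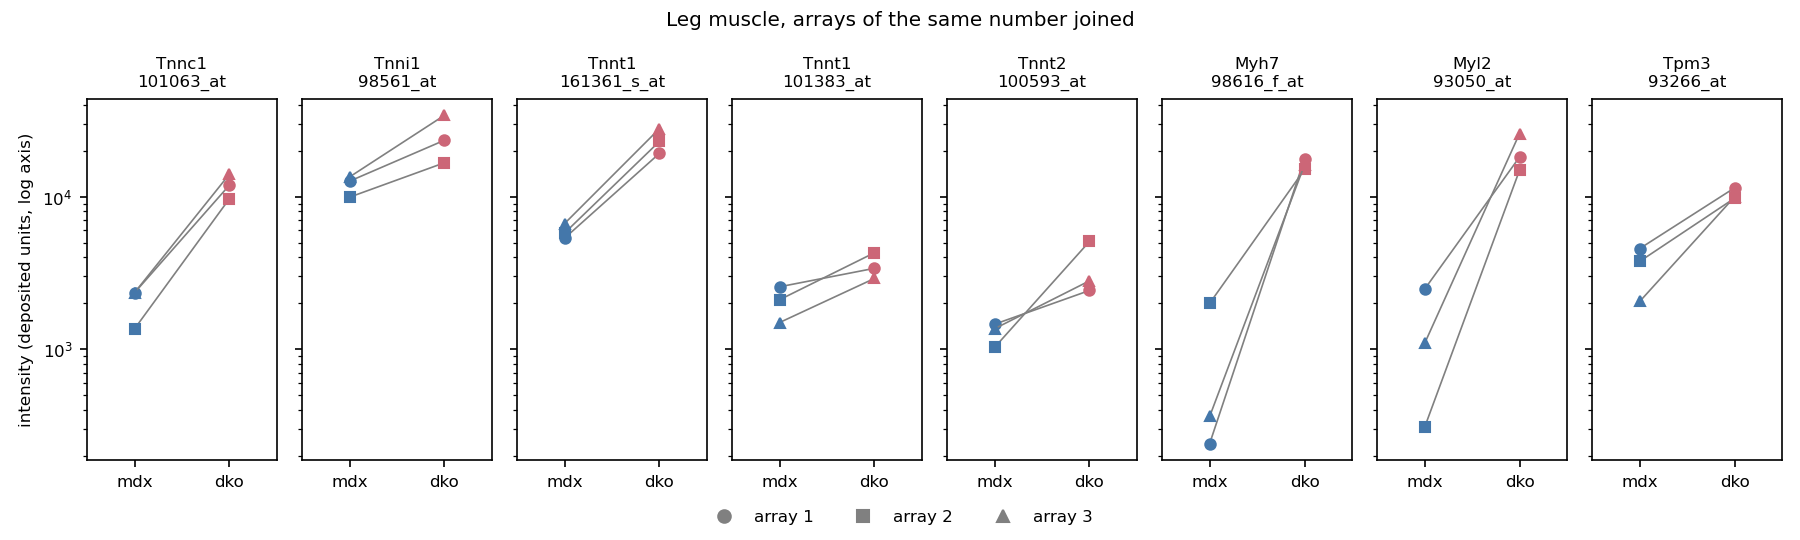
Intensity (log axis) on the leg arrays of the 5 troponin probe sets whose genotypes did not overlap, and of Myh7, Myl2 and Tpm3, with lines joining the mdx and dko arrays of the same number. The line rises for all 3 numbers in every panel, from 1360.8 to 9671.9 for the array numbered 2 in Tnnc1.

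The promoters of the slow isoforms that were higher in dko leg muscle are printed with those of the 2 cardiac isoforms beside them in the genome, because Tnnt1 and Tnni3 are adjacent and had opposite tissue patterns. The windows run from 250 bases before to 50 bases after a RefSeq start (GRCm38.p6, 6 of the 8 members matched), 5′ to 3′ on the gene's strand. Tnni1 and Tnnt2 each had 2 such windows, from 2 RefSeq starts, and the first is printed. Capitals mark matches on either strand. The letters CAGCTG are an E box favoured by myogenic factors. The M-CAT element reads CATTCC. A start-site motif reads TATAAA. The GATA element was searched as AGATAA, and the MEF2 and CArG motifs were searched too.
Tnnc1 promoter, chr14:31208062-31208361, plus strand: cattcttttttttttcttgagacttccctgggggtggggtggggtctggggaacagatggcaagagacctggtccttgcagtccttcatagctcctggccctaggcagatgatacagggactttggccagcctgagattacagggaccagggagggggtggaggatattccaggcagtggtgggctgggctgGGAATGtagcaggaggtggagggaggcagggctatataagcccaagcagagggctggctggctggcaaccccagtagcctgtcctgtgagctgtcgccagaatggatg
Tnni1 promoter, chr1:135799171-135799470, plus strand: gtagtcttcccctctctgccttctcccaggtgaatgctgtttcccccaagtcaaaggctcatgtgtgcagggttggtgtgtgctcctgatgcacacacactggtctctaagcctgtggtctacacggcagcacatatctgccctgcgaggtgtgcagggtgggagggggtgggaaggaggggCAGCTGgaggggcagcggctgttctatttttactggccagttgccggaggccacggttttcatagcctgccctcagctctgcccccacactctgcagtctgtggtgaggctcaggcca
Tnnt1 promoter, chr7:4515926-4516225, minus strand: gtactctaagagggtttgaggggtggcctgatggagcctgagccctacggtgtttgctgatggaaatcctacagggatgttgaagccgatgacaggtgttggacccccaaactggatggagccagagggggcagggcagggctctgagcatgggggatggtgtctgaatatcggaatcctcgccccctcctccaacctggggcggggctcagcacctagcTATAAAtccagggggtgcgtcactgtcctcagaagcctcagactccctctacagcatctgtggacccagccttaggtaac
Tnnt2 promoter, chr1:135836084-135836383, plus strand: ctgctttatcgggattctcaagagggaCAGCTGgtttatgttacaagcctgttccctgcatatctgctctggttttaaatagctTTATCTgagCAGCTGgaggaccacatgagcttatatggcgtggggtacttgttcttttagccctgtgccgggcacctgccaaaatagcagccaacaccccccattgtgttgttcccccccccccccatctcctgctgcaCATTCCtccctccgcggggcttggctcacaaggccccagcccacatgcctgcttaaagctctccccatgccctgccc
Tnni3 promoter, chr7:4522479-4522778, minus strand: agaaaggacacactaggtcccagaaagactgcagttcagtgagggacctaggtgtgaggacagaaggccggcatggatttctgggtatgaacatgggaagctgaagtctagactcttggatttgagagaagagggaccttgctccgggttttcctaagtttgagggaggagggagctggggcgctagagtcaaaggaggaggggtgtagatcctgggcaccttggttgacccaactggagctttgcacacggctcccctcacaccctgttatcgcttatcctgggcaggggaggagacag
The Tnnc1 window held GGAATG, the other strand of CATTCC, at position -58, the Tnni1 window CAGCTG at -68 and the Tnnt1 window TATAAA at -30, counted from the start. Tnnt2 held CAGCTG at -223 and -157, CATTCC at -27 and the GATA element at -166, and Tnni3 held none of the capitalised motifs. In the windows not printed, Tnni1 held the same CAGCTG at -158 from its other start and Tnnt2 held none of the capitalised motifs. Of 32851 windows of the same 300 bases, 16.3% held CAGCTG, 14.7% CATTCC, 13.6% TATAAA, 11.2% AGATAA, 3.19% MEF2 and 1.63% CArG. The general E box CANNTG, which includes CAGCTG, was in 72.3% of windows and in all 5 shown. MEF2 and CArG matches were in none of the 5. The 3 slow windows shared no capitalised motif. The capitalised motifs were searched only in their exact letters, so near spellings, such as tatataag in the Tnnc1 window beside TATAAA, were not marked. A match is a description of the letters, not a site of binding.

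In extraocular muscle 0 of 9 troponin probe sets differed between dko and mdx, without a block or with the replicate block. Of all probe sets 0.0225% passed without a block and 0.158% with it. In limma 0 of the 9 had an unadjusted p under 0.05 either way. Of the 8888 probe sets tested, 196 did without the block and 717 with it. The median difference of the 9 was 0.12, and it was -0.01 over all probe sets. Tnnc1 differed by 0.03 (95% interval -0.91 to 0.97), Tnni1 by 0.20, and Tnnt1 by 0.19 and -0.20 in its 2 probe sets. The widest differences were -0.80 in Tnni3 and -0.35 in Tnnc2. The interval of Tnnc1 did not reach the 2.48 seen in leg muscle, which had its own interval of 1.54 to 3.42. A direct test of the 2 tissues against each other, given below, passed for Tnnc1 only with the replicate block.

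Heart muscle gave 0 of 9 as well, in a comparison where limma called 0.0% of all probe sets with or without the block, 130 and 494 of them having an unadjusted p under 0.05 without and with it. None of the 9 troponin probe sets had an unadjusted p under 0.05. The isoforms of the adult heart differed by 0.01 for Tnnc1 (95% interval -0.93 to 0.95), -0.53 for Tnni3 (-1.83 to 0.77) and -0.11 for Tnnt2 (-0.97 to 0.74). Tnni3 was lower in the dko heart array in all 3 pairs, with the arrays numbered 3 far above the others in both genotypes. Tnni1, the isoform of the fetal heart, differed by 0.36 (-0.55 to 1.26).

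**Figure D5:**
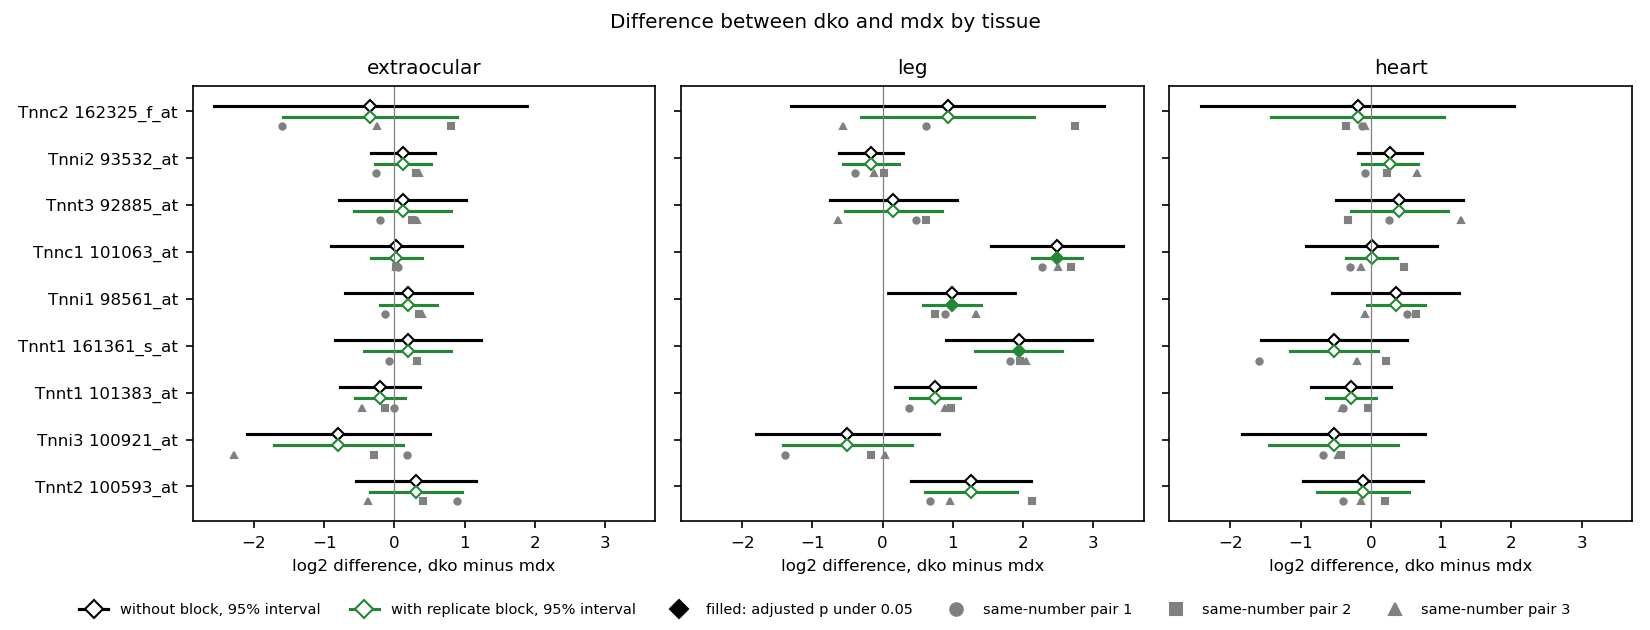
Log2 difference of dko minus mdx in each tissue for the 9 tested troponin probe sets, as diamonds with 95% intervals without (black) and with (green) the replicate block, filled where the adjusted p was under 0.05, and grey points for the same-numbered pairs. Tnnc1, Tnni1 and both Tnnt1 probe sets lie right of 0 in leg muscle, from 0.74 to 2.48, and between -0.52 and 0.36 in extraocular muscle and heart.

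The difference between tissues in the response was tested itself. Without a block 0 of 9 troponin probe sets passed for leg against extraocular muscle, heart against leg, or heart against extraocular muscle, and limma called 0.0% of all probe sets in each. For these comparisons 3, 4 and 0 troponin probe sets had an unadjusted p under 0.05. Over the 8888 probe sets tested the counts were 180, 259 and 124. With the replicate block Tnnc1 passed in both comparisons that involve leg muscle. Its response was larger in leg than in extraocular muscle by 2.45 (95% interval 1.94 to 2.96, adjusted p = 0.0084, with 0.0338% of all probe sets passing), and its response in heart was below that in leg by -2.47 (-2.98 to -1.96, adjusted p = 0.00617, with 0.0675% passing). These comparisons share the leg arrays. The first call was lost without any 1 extraocular pair or the leg pair numbered 3 (2.44 to 2.46, adjusted p = 0.0601 to 0.081). The second passed without any 1 pair, and both were lost without all 6 arrays of any 1 number (adjusted p = 0.0759 to 0.442). Tnnt1 161361_s_at differed by 1.75 and -2.46 and did not pass with the block (adjusted p = 0.348 and 0.0846), nor did Tnni1 at 0.78 and -0.63 (adjusted p = 0.439 and 0.423). Averaged over the 3 tissues, 0 of 9 probe sets passed without a block (0.09% of all) and 1 with it, higher in dko (0.788% of all in either direction and 0.551% higher). That 1 was Tnnc1, at 0.84 (adjusted p = 0.01 with the block, 0.434 without), for which the exact permutation of genotypes within tissues gave p = 0.057 and the dko array was higher in 7 of 9 pairs. With the block this call was lost without the extraocular pair numbered 1 (adjusted p = 0.0556) or all 6 arrays of any 1 number (0.0806 to 0.169).

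Other genes of the slow fibre gave 1 of 9 tested genes higher in dko leg muscle without a block and 3 of 9 with the replicate block, with none lower. Of all probe sets 0.0563% passed in leg muscle without a block and 1.2% with it, 1.01% being higher. Myh7, the slow myosin heavy chain, read 241.2, 1999.2 and 363.0 in mdx leg and 17632.2, 15031.4 and 16145.1 in dko leg, a difference of 4.40 (adjusted p = 0.000559, or 0.00193 with the block). The groups did not overlap, and the mdx array numbered 2 was the highest of its group. Myl2, the slow regulatory light chain, differed by 4.05 and Atp2a2, the slow calcium pump, by 1.70, both passing with the block (adjusted p = 0.00193 and 0.0141). The list's median was 0.40, against -0.04 over all probe sets, and its summed level ran from 50152.2 to 93256.8 on the mdx leg arrays and from 86556.8 to 127824.3 on the dko ones. Of 13 fast fibre genes 0 passed in leg muscle either way, with a median of 0.19. In extraocular muscle Myom2 of that list was higher in dko by 1.37 (adjusted p = 0.0203, or 0.0316 with the block). It averaged 421.3 ± 63.9 in mdx and 1356.1 ± 200.6 in dko extraocular muscle.

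Partners of troponin on the thin filament gave 0 of 12 without a block and 2 of 12 with the replicate block in leg muscle, with a median of 0.22. The shares of all probe sets were 0.0563% and 1.2%. The slow tropomyosin Tpm3 read 4563.1, 3760.0 and 2055.1 in mdx and 11394.2, 9749.1 and 9950.6 in dko, without overlap (1.60, adjusted p = 0.366, or 0.0204 with the block). The skeletal actin probe set for Acta1 differed by 1.91 (adjusted p = 0.861, or 0.0158 with the block), with overlapping groups at 7951.0 ± 11007.6 in dko and 2386.7 ± 3697.6 in mdx. Of 16 regulators of muscle calcium and fibre type, 0 passed in leg muscle either way, with a median of -0.06.

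Genes of embryonic and regenerating muscle gave 1 of 15 higher in dko leg muscle without a block and 6 of 15 with the replicate block, with none lower and a median of 0.40. The leg shares of all probe sets were 0.0563% without a block and 1.2% with it. Myh3, the embryonic myosin heavy chain, read 2049.0, 1345.0 and 2547.7 in mdx leg and 6628.4, 11845.7 and 7648.1 in dko leg (2.04, adjusted p = 0.023). With the block Myh8, the perinatal myosin, passed at 1.08, Myl4 at 1.21, Chrnd at 1.02, Myf5 at 0.93 and Chrna1 at 0.82. The dko and mdx leg groups of Myf5 overlapped. Chrnd and Chrna1 encode acetylcholine receptor subunits and Myf5 a myogenic factor. Of 18 cardiac genes 0 passed without a block and 1 with it, Myl4, which is also on the embryonic list. The cardiac list had a median of -0.12 in leg muscle, with 5 of 18 differences positive. Its summed level ran from 66921.2 to 124129.5 on the mdx leg arrays, from 80501.8 to 98441.5 on the dko leg arrays and from 190121.3 to 443005.9 on the heart arrays. Of the list, 6 genes in mdx leg and 7 in dko leg were above the 40th percentile on no array, and none had an array at 0. Cardiac actin, Actc1, which regenerating muscle also makes, read 20325.3 to 44820.3 on the 6 leg arrays against 33355.1 to 65973.4 on the 6 heart arrays, and Nppa, the atrial natriuretic peptide, read 765.9 to 1847.6 against 11864.3 to 18370.6. Myl4, the atrial and embryonic light chain, averaged 7432.6 ± 1457.0 in mdx leg and 17288.8 ± 2258.5 in dko leg muscle (SD, n = 3 each). It was not particular to leg muscle. In extraocular muscle it averaged 3985.1 ± 2744.6 in mdx and 9895.7 ± 2767.3 in dko, without overlap (1.47, adjusted p = 0.755, or 0.0325 with the block). The other myosin genes of the list were low in leg muscle: Myh6 read 53.6 to 132.9 on the 6 leg arrays and 6873.7 to 68085.4 on the 6 heart arrays, and Myl7 read 33.6 to 91.8 against 14316.8 to 34736.6.

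Markers of other cells moved with the leg comparison too, where 0.0563% of all probe sets passed without a block and 1.2% with it. Of 17 macrophage genes 0 passed without a block and 4 with the replicate block (Cd53, C1qb, Csf1r and C1qc), all 17 differences were positive, and the summed level ran from 36661.2 to 71435.0 on the mdx arrays and from 69123.5 to 133887.1 on the dko arrays. Of 12 fibroblast matrix genes 1 passed without a block (Postn) and 2 with it (Postn and Col5a2). All 12 differences were positive, with sums of 105845.1 to 224059.8 on the mdx arrays and 158196.2 to 226187.2 on the dko arrays. The dko and mdx leg groups of Cd53, C1qb and Col5a2 overlapped. In extraocular muscle the macrophage sums were 27362.0 to 33544.1 in mdx and 60147.8 to 65284.4 in dko. There 1 of 17 passed without a block (Ctss), against 0.0225% of all probe sets. With the block 3 passed (Ctss, Lgals3 and Mpeg1), against 0.158%. No gene of either list had an array at 0. Gland, endothelial and smooth muscle lists had 0 genes past the threshold in any of the 3 tissues. Of 7 adipocyte genes 1, Ucp1, was lower in dko extraocular muscle with the block, with overlapping groups. The part of these markers in the troponin differences was not tested.

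The genes whose log2 values followed each troponin most closely over the 18 arrays, among 7968 candidate probe sets, are given next as Pearson r. Tnni2 and Tnnt3 shared their first 2, the skeletal calcium release channel Ryr1 (r = 0.99 with each) and Rtn4 (0.99 with each), followed by the calcium buffer Pvalb for Tnni2 and the fast myosin Myh1 for Tnnt3. Tnnc2 was closest to Myh4 (0.97), Fhl1 (0.96) and Actn3 (0.94). Tnni1 was closest to Myh8, Myh3 and Chrna1 (0.96 each) and Tnnt1 to Myh3 (0.95), Tbx15 (0.94) and Apod (0.93), so Myh3 stood on both lists. Tnnc1 was closest to Cox6a1, Ablim1 (0.92 each) and Fbln1 (0.90). Tnni3 was closest to Rbpms, Ptgds (0.98 each) and Mybpc3, the cardiac myosin-binding protein C, and Tnnt2 to Gna12, Ctnna1 (0.97 each) and Entpd5 (0.96). These r values describe 18 arrays that share tissue and array number and mostly carry the contrast between tissues.

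Between members, Tnni2 and Tnnt3 correlated over the 18 arrays with r = 0.99, Tnni3 and Tnnt2 with 0.92, and Tnnt3 and Tnni3 with -0.95. Tnnc1 followed neither set closely, with r = -0.13 to Tnnt1 161361_s_at, -0.31 to Tnni1, 0.62 to Tnni3 and 0.64 to Tnnt2. Within groups, after the group means were taken out, Tnnc2 and Tnnt3 kept r = 0.85 while Tnni2 and Tnnt3 had 0.26 and Tnni1 and Tnnt1 161361_s_at had 0.01. These values still carry what arrays of the same number share. The array numbered 3 was the highest in 4 of 6 groups for Tnnc2 and in 5 of 6 for Tnnt3.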

How the data were processed

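Total RNA of 18 samples was measured on Affymetrix arrays, per the labels. The deposited values are probe set intensities on a linear scale that had been scaled to a common mean before deposition, as their trimmed means show. The software and background correction were not given in the sources used here, and no detection calls were used. Of 12488 probe sets, 66 controls were left out. Of the other 12422, the platform annotation gave 10833 a single symbol, 396 several and 1193 none. Symbols come from that annotation, which can be old. Log2(intensity + 166.7) was fitted with limma 3.58.1 in R 4.3.3 for the 8888 probe sets above the array's 40th percentile on at least 3 of 18 arrays, as 6 group means, with two-sided moderated tests and Benjamini-Hochberg adjustment over all 8888. The fit had 12 residual and 3.52 prior degrees of freedom. Figures and tables used Python 3.11.15. The precision is limited by 3 arrays a group.

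Arrays of the same number were treated as pairs because deviations from the group means correlated in all 9 same-tissue pairs (0.404 to 0.751, median 0.61). All 36 same-numbered pairs from different tissues correlated too (0.327 to 0.74, median 0.536). The correlation therefore does not show that the mdx and dko arrays of a tissue were matched. The labels do not say what a number marks. The replicate block used the number within tissue for comparisons of genotypes (6 residual degrees of freedom), and 1 number term for comparisons of tissues (10). Blocked values are given where they changed a call.

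The members and the gene lists were chosen with earlier results of these data known. All member probe sets were named. From the lists, each gene was represented by its brightest tested probe set. Up to 6 genes per list and tissue were named by the largest difference among those called between dko and mdx. For each member the 3 genes with the highest Pearson r were named. Myh6 and Myl7, as defining cardiac markers, and Myh4 on 1 leg array were named after their values were seen. Actc1 and Nppa of the cardiac list were not called and were also named outside the rule. Alternatives were the filter, offset, scaling, variance model, arrays in the fit, the block and each array left out. The fitting code was tested on simulated data.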

Additional observations from a re-analysis of the deposited data

Results flagged for a closer look

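Only with the replicate block did 1 troponin, Tnnc1, pass a test of whether the response to genotype differed between tissues. With the replicate block, the dko minus mdx difference of Tnnc1 was larger in leg than in extraocular muscle by 2.45 on the log2 scale (limma, adjusted p = 0.0084). Its difference in heart was below that in leg muscle by the same test (-2.47, adjusted p = 0.00617). Without the block neither passed (adjusted p = 1.0 for both). With the block the leg and extraocular call was also lost without any 1 extraocular pair or the leg pair numbered 3 (adjusted p = 0.0601 to 0.081). Both blocked calls were lost without all 6 arrays of any 1 number (adjusted p = 0.0759 to 0.442). The comparisons share the leg arrays. Groups of 3 arrays were too small for a test of single outlying arrays.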

How the results depend on the processing

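No called troponin difference turned its direction under any alternative run. Of 1782 planned comparisons with the main value over 117 results, 1672 kept direction and side of the threshold, 77 were uncalled values that changed sign or moved, 13 passed only under the alternative and 20 lost a call. The replicate block raised the count of troponin probe sets passing from 0 to 3 in leg muscle and from 0 to 1 for leg against extraocular muscle, for heart against leg and for the mean over tissues, and beside Tnnc1 in dko heart against leg it changed no other call. In leg muscle quantile normalization alone and the trended, robust variance model gave 1 each. Alternatives chosen after seeing the data combined the block with other choices. In leg muscle they gave 3 with quantile normalization or 75th percentile scaling, 1 with an offset of 16.67, 1 without any pair of leg arrays, 2 without all arrays numbered 1 1 without all numbered 2 and 0 without all numbered 3. For the tests between tissues that involve leg muscle and for the mean, those that kept a call gave 1, or 2 for heart against leg without the heart pair numbered 1 or 2, and 2 for the mean without the heart pair numbered 1 or with quantile normalization. They gave 0 there without all 6 arrays of any 1 number, for leg against extraocular muscle without any extraocular pair or the leg pair numbered 3, and for the mean without the extraocular pair numbered 1. In mdx extraocular against leg muscle, without a block, the count fell from 3 to 1 without all 6 arrays numbered 1 and to 0 without those numbered 2. Fewer arrays remain there, and the cause of the other shifts was not tested. Tnni2 and Tnnt3 in heart and Tnni3 in leg muscle lay near the dim end of the arrays, so the size of their tissue difference depends on the offset.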
